A study of Bos taurus with 6 samples.

Results

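Interferon genes are described here in white blood cells of Sanhe heifers sampled before and after severe cold. Members were chosen by gene symbol and none by its values, although earlier results of these data were known when the choice was made. The rule took interferon receptor chains, the STAT and IRF transcription factors of the pathway, sensors of foreign nucleic acid and genes known to be induced by interferon. It found 39 of the 6337 genes that could be named on the array, represented by 55 of its 12763 probe sets. Where a gene had several probe sets, the brightest on average was read. IFNAR1, IFNGR1 and IFIH1 were among the genes sought that had no probe set carrying their symbol alone, and they are not analysed here.

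Interferons are secreted proteins that cells release on meeting a virus or other stimulus. Type I interferons bind the IFNAR1 and IFNAR2 chains and lead to a nuclear complex that holds STAT2 and IRF9, while interferon gamma binds IFNGR1 and IFNGR2. Both switch on genes whose products block viral replication, sense viral RNA or DNA, and present antigen. In blood these genes are known for moving together during infection or after interferon treatment.

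The study profiled 6 RNA samples from 3 heifers, picked out of 30 healthy ones of the Sanhe breed, cattle kept for milk and meat. Each animal gave blood before and after the exposure, and the labels do not say which samples share an animal. After-cold samples (numbered 1, 2 and 3) came from heifers that spent 3 hours outdoors at -32 °C and then 15 hours in a cowshed at 5 °C; when in this sequence blood was taken is not stated. Before-cold samples (numbered 4, 5 and 6) came from heifers housed in the same cowshed and fed the same kind of ration. No genotype was altered and no drug is named in either group, and the animals' exact age is not given. The comparison asks how transcript levels respond to severe cold, as far as the series' design text states its purpose. Since each animal lies in both groups but the pairs are unknown, the tests took the 6 arrays as independent.

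Values are log2 of the probe set intensities the authors deposited, and a difference is the mean after cold minus the mean before it. The array medians lay within 0.24 of each other. The after 2 and before 6 arrays were the most alike, with a correlation over all probe sets of 0.995, followed by after 1 and before 4 at 0.986. Between after 2 and before 6, 4 probe sets differed over 2-fold. Between after 2 and after 3, among the least alike pairs with a correlation of 0.874, 4867 did. The first principal component, with 68.4% of the variance, separated arrays within both groups and did not follow the cold. Leukocyte transcripts were measured, with PTPRC, the pan-leukocyte surface phosphatase, at 11.2 to 12.4 and the T cell receptor subunit gene CD3E at 10.8 to 11.3. The T cell markers CD6 and CD4 were lower, at 5.83 to 7.16 and 5.28 to 6.10. Whole blood holds such transcripts too, so they cannot tell isolated white cells from it. Transcripts of other blood elements were also measured, with beta globin HBB at 11.7 to 12.2 and the platelet chemokine PF4 at 12.4 to 12.8. In such bulk samples fewer cells of a type and less RNA per cell cannot be told apart.

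Interferon genes did not move in one direction after cold. The mean after cold was higher for 20 of the 39 genes and lower for 19, while 56.3% of all genes had a higher one. Their median difference was 0.0068, beside 0.05 over all genes. With limma, 0 of the 39 passed an adjusted p of 0.05, and 0 of 12763 probe sets did (0% called). At an unadjusted p under 0.05 there was 1 interferon gene, IFIT5, against 0.537% of all genes. The groups did not overlap in 1 interferon gene, again IFIT5, against 5.02% of all genes. A mean at least 1.5-fold lower after cold was seen in IFIT5, IFI44L and PARP9, which is 3 of 39 against 6.82% of all genes. None was 1.5-fold higher, where 0.142% of all genes were. Each of these counts is near its background and says nothing particular about interferon genes.

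**Figure D1:**
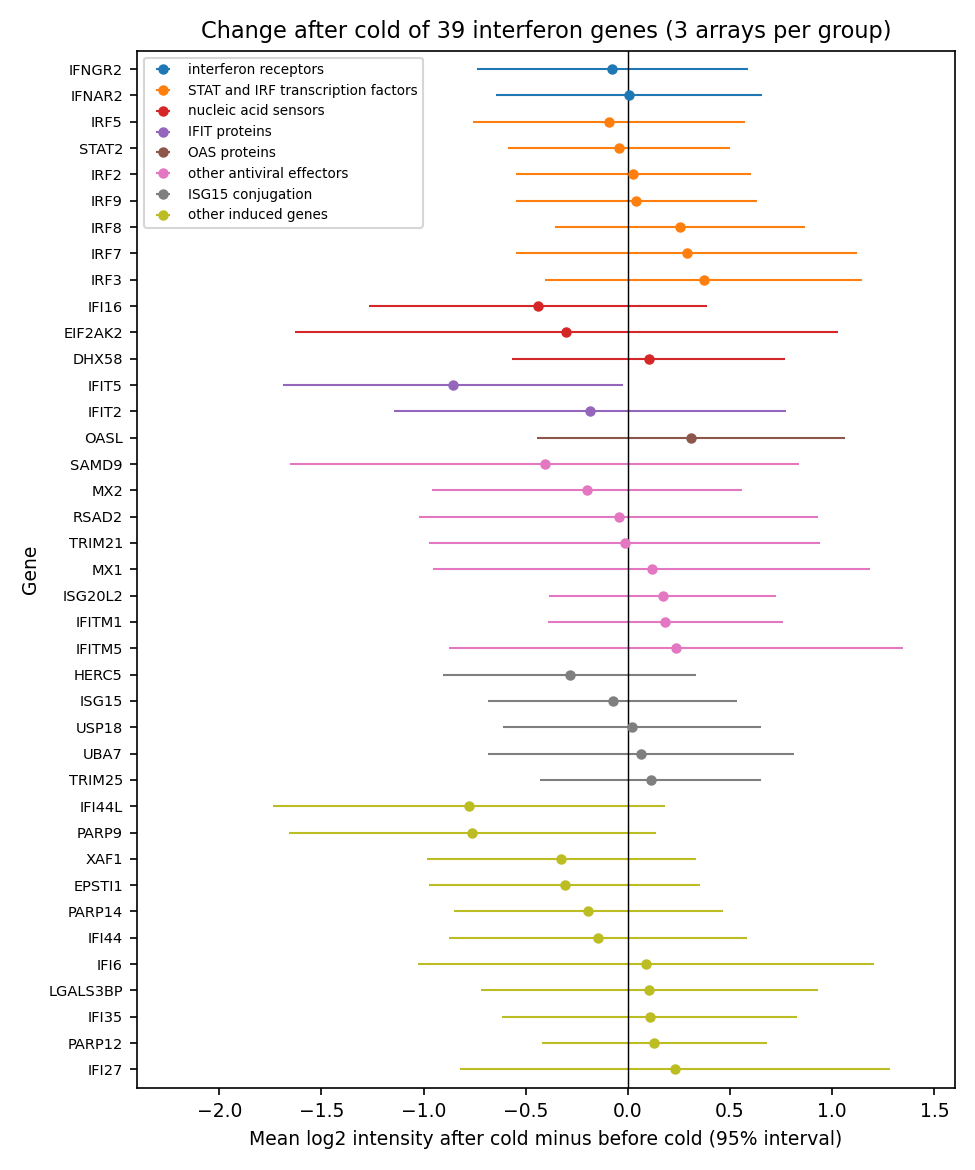
Difference in mean log2 intensity, after minus before cold, for the 39 interferon genes, grouped and coloured by role; points are differences and bars their 95% intervals from limma (3 arrays per group). Points lie on both sides of 0, from -0.86 for IFIT5 to 0.37 for IRF3, and the IFIT5 interval is the only one that leaves out 0.

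The intervals show how large a response these arrays could have missed. For 24 of the 39 genes the 95% interval of the difference lay wholly within a 2-fold change in either direction, against 56.7% of all genes. For the other 15 a change of 2-fold or more remained inside the interval. The 24 included IFI44 by its brightest probe set, at -0.87 to 0.58, while the intervals of its further probe sets reached down to -2.28, -2.16 and -2.23. They also included HERC5 and MX2, which were among the dimmest 25% of probe sets. Signal could not be told from background there, so a narrow interval need not bound a response. STAT2, which carries the type I interferon signal to the nucleus, had the narrow interval of -0.58 to 0.50, while IFI44L had -1.73 to 0.18. For a single gene, the smallest p that exact permutation of 3 against 3 allows is 0.1.

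The receptor chains showed no difference larger than the spread between arrays. IFNAR2, the signalling chain for type I interferons, was at 8.10, 8.58 and 7.93 after cold and at 8.20, 7.96 and 8.43 before. Its groups overlapped fully, with a difference of 0.0068 ± 0.28 (SE, n = 3 in each group; limma, adjusted p = 1.00). IFNGR2, the second chain of the interferon gamma receptor, was at 9.06, 9.46 and 9.80 after and at 9.32, 9.76 and 9.48 before. The after 1 and after 3 arrays held its lowest and highest values, and its difference was -0.08 ± 0.29.

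The transcription factors numbered 7, with 5 of them higher on average after cold and a median difference of 0.04. STAT2 was at 7.37, 7.42 and 7.55 after cold and 7.41, 7.48 and 7.57 before, a range over the 6 arrays of 0.20 that is narrower than that of nearly all genes. Its partner IRF9, which gives the complex its DNA binding, was at 9.97, 9.55 and 9.90 after and 9.90, 9.81 and 9.59 before. Both genes had overlapping groups, with differences of -0.04 ± 0.24 and 0.04 ± 0.26.

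IRF3 and IRF7 are the factors that switch on interferon genes themselves once a virus is sensed. IRF3 was at 10.2, 9.44 and 10.4 after cold and at 9.87, 9.81 and 9.21 before. IRF7 was at 8.81, 7.999 and 9.09 after and at 8.47, 8.67 and 7.89 before. Both were highest on after 3 and lowest on before 6, and after 2 lay with before 6 at the low end. Their differences of 0.37 ± 0.34 and 0.29 ± 0.36 did not pass the test (limma, adjusted p = 1.00 for both). Without after 2 they were 0.65 and 0.61 (adjusted p = 0.377 and 0.411), without after 3 the IRF7 value was 0.06, and without before 6 the IRF3 value was 0.16. A second IRF7 probe set gave 0.28 ± 0.36.

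The remaining factors were IRF8, IRF5 and IRF2. IRF8, a factor of B cells, monocytes and dendritic cells, differed by 0.26 ± 0.27 and its other probe set by 0.28 ± 0.27. The median deviation of 3 B cell markers (CD79A, MS4A1 and POU2AF1) was highest on after 3, at 0.63, as was IRF8 itself at 10.3, although MS4A1 alone was below its mean there, at 11.2 against 11.5. The median deviation of 4 monocyte markers was 0.47 on after 3 and highest on before 5, at 0.63. MSR1 among them was lowest on after 3, at 4.04 against a mean of 4.59. The part of these cells in the IRF8 value was not tested. The IRF5 difference was -0.09 ± 0.29 and that of IRF2, which opposes IRF1 at shared sites, was 0.03 ± 0.25.

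Of the nucleic acid sensors 1 of 3 had a higher mean after cold. IFI16, a sensor of DNA in the nucleus and cytosol, was at 10.8, 10.8 and 9.62 after cold and 10.8, 10.9 and 10.8 before. Only after 3 was low, and the other 5 lay within 0.14 of each other. Its difference was -0.44 ± 0.36 (limma, adjusted p = 1.00), and without after 3 it was -0.04. DHX58, a helicase that tunes the RNA sensors, differed by 0.10 ± 0.29.

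EIF2AK2, the kinase PKR that stops translation on binding double-stranded RNA, had the widest range over the 6 arrays, 1.92, among the probe sets used, while 3 IFI44 probe sets and 1 of PARP12 that were not used ranged from 1.98 to 2.69. It was at 5.44, 7.10 and 5.26 after cold and at 5.55, 5.97 and 7.18 before. Arrays 2 and 6 were high and the other 4 low, so that the spread lay within the groups, and the difference was -0.30 ± 0.58. Its second probe set was at 5.55, 6.27 and 4.93 after and 6.29, 6.20 and 6.28 before, where the before arrays were alike and after 1 and after 3 were low. That probe set gave -0.67 ± 0.35 (limma, adjusted p = 1.00).

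The IFIT proteins bind foreign RNA and hinder its translation. IFIT5 was at 8.27, 8.75 and 7.40 after cold and at 9.01, 9.09 and 8.88 before. All 3 after arrays lay below all 3 before arrays, although after 2 was 0.13 under the lowest of them. Its difference of -0.86 ± 0.36, or 0.552 of the level before cold, did not pass the test over all probe sets (limma, adjusted p = 1.00, unadjusted p = 0.0446). It was -0.49 without after 3 and -1.22 without after 2 and before 6, and its adjusted p was 0.270 or higher under every alternative run. IFIT2 was at 7.10, 7.74 and 6.56 after and 6.59, 7.67 and 7.70 before, so that its groups overlapped, with a difference of -0.18 ± 0.42.

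**Figure D2:**
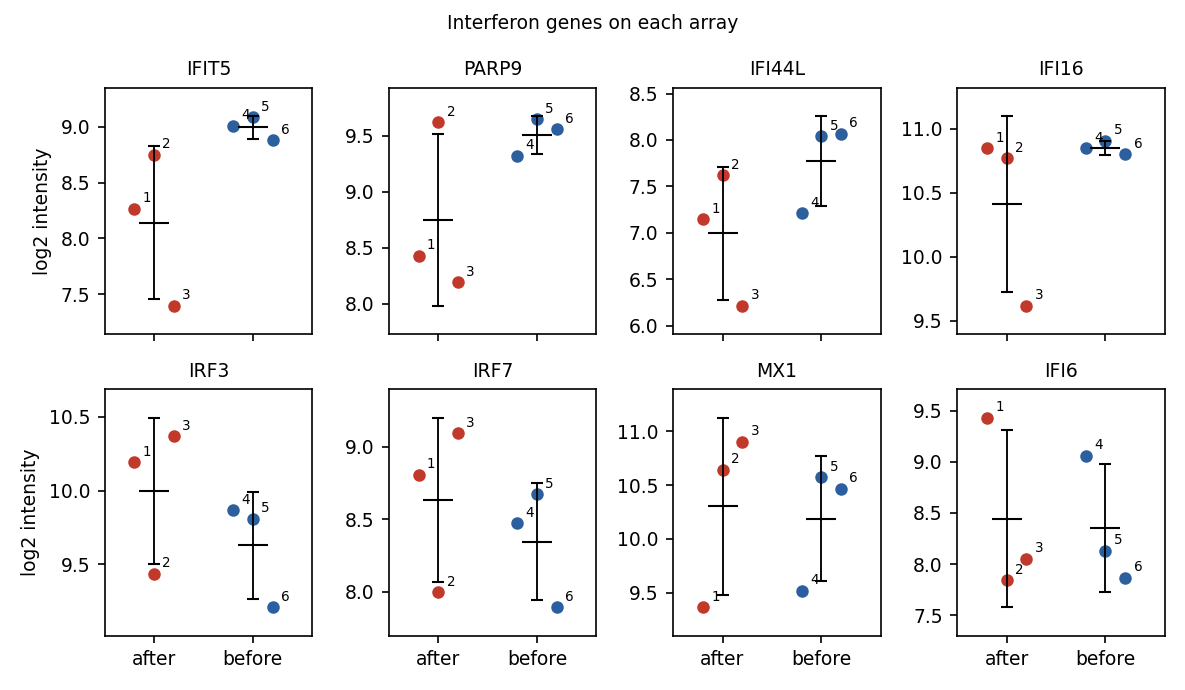
log2 intensity of IFIT5, PARP9, IFI44L, IFI16, IRF3, IRF7, MX1 and IFI6 on each array, with after cold in red and before cold in blue; numbers are the sample numbers, and black bars the mean and SD of 3 arrays. After 3 is lowest for IFIT5, PARP9, IFI44L and IFI16, while arrays 1 and 4 stand together and apart from the other 4 for MX1 and IFI6.

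PARP9 and IFI44L had the next largest negative differences. PARP9, an ADP-ribosyltransferase family member that promotes interferon signalling, was at 8.43, 9.62 and 8.19 after cold and 9.32, 9.65 and 9.56 before. After 1 and after 3 were low, and after 2 lay among the before arrays. The difference was -0.76 ± 0.39 (limma, adjusted p = 1.00), with -0.48 without after 3 and -1.20 without after 2. IFI44L, an interferon-induced gene of unsettled function, was at 7.15, 7.62 and 6.22 after and 7.21, 8.04 and 8.07 before. Its groups overlapped through after 2 and before 4, and its difference of -0.78 ± 0.42 was -0.39 without after 3.

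The gene beside IFI44L on the chromosome is IFI44, and its 4 probe sets did not give the same picture. The one used, with the highest mean, was at 7.64, 6.90 and 6.85 after cold and 7.12, 7.64 and 7.07 before, a difference of -0.15 ± 0.32. The second was at 6.21, 7.02 and 5.06 after and 6.74, 7.74 and 7.19 before, a difference of -1.13 ± 0.50. The remaining pair gave -1.10 ± 0.46 and -0.98 ± 0.55.

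These 3 further IFI44 probe sets were all lowest on after 3 and next lowest on after 1, as was IFI44L. None passed the test (limma, adjusted p = 1.00 for each), and their groups overlapped because after 2 lay among the before arrays. Averaged over its 4 probe sets, the IFI44 difference was -0.84 (adjusted p = 1.00). So the size of the IFI44 value depends on which probe set is read, while all 4 had the lower mean after cold. Over the 55 probe sets of interferon genes, 2 had an unadjusted p under 0.05, that of IFIT5 and the IFI44 one at -1.10, where 0.494% of all probe sets did.

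**Figure D3:**
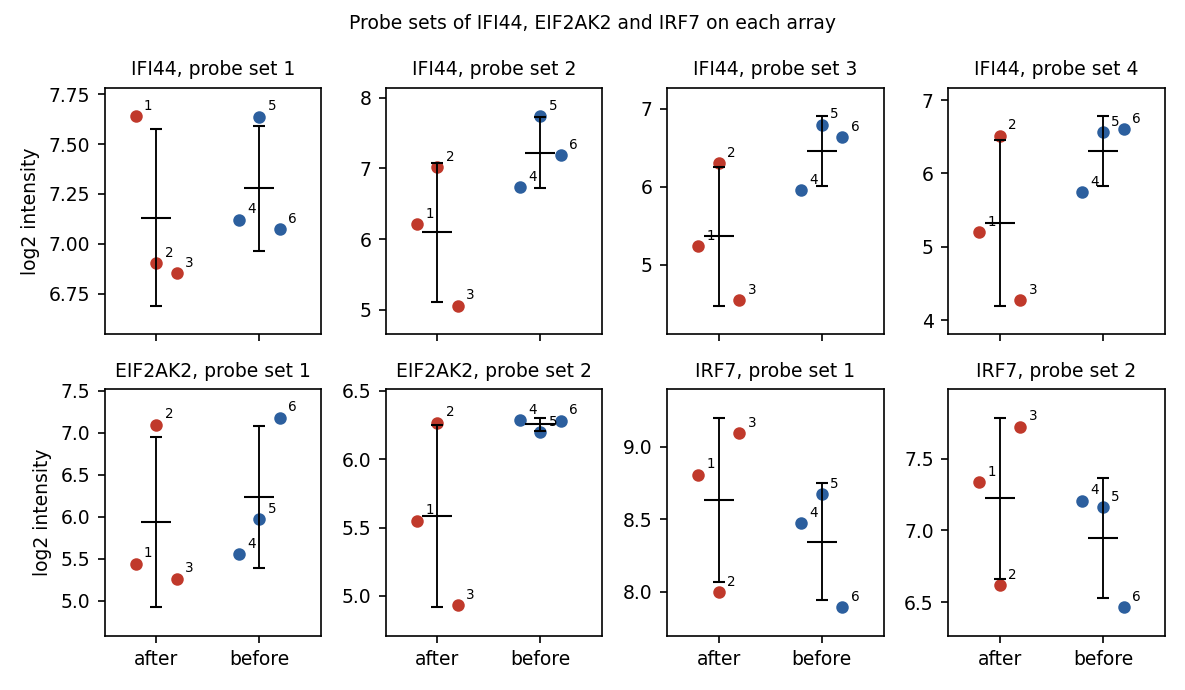
log2 intensity on each array of the 4 probe sets of IFI44, the 2 of EIF2AK2 and the 2 of IRF7, ordered within a gene by mean; after cold in red, before cold in blue, numbers are sample numbers, black bars mean and SD of 3 arrays. IFI44 probe sets 2 to 4 have nearly the same order of arrays, with after 3 lowest and after 1 next. Probe set 1 has after 1 at the top, and the IRF7 pair has nearly the same order.

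XAF1, which promotes apoptosis, was at 10.1, 9.72 and 9.45 after cold and 10.2, 10.3 and 9.82 before. It differed by -0.32 ± 0.29, and by -0.16 without after 3. EPSTI1 differed by -0.31 ± 0.29 and PARP14 by -0.19 ± 0.29, while PARP12 differed by 0.13 ± 0.24. All 4 had overlapping groups and an adjusted p of 1.00 in limma. IFIT5, PARP9, IFI44L, IFI16, XAF1 and EPSTI1 had their lowest values on after 3. There the median deviation of 4 genes listed for eosinophils and basophils (ALOX15, RNASE6, CCR3 and FCER1A) was -0.80. RNASE6 is not particular to these cells, and it was at 10.5 there against a mean of 11.6. The median deviation of 3 pan-leukocyte markers was -0.34, although CORO1A among them was highest there, at 13.1. On the same array the median deviation was 0.63 for B cell, 0.47 for monocyte and 0.37 for neutrophil markers. It was 0.14 for T cell, 0.21 for NK and cytotoxic cell, -0.16 for platelet and -0.02 for red cell markers. Among the T cell and cytotoxic markers, CD3G and GZMB were at their lowest there. TCF4, the only measured gene of those listed for plasmacytoid dendritic cells, was also at its lowest, at 7.98 against a mean of 8.57. The B cell marker MS4A1 and the monocyte marker MSR1 were below their own means there, MSR1 at its lowest. The part of these cells in the values was not tested. After 3 was also the array on which 32.5% of all genes were lowest, against 13 of the 39 interferon genes.

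Among the other antiviral effectors 4 of 8 had a higher mean after cold. Across the arrays 6 of 8 ranged over 2-fold, against 48.5% of all genes, and so few genes do not make this a trait of the role. MX1, a dynamin-like GTPase that traps viral nucleoproteins, was at 9.37, 10.6 and 10.9 after cold and 9.52, 10.6 and 10.5 before. Arrays 1 and 4 were low and the other 4 lay within 0.44 of each other, and the difference between groups was 0.12 ± 0.47. Its chromosomal neighbour MX2 was at 5.22, 6.08 and 5.51 after and 5.73, 5.45 and 6.23 before. MX2 was high on after 2 and before 6 instead, with a difference of -0.20 ± 0.33.

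RSAD2, the viperin enzyme that makes a chain-terminating nucleotide, was at 7.48, 7.87 and 6.64 after cold and 7.18, 6.87 and 8.08 before. It was highest on before 6 and after 2, and its difference was -0.05 ± 0.43. SAMD9 was at 8.27, 9.92 and 8.18 after and 8.43, 9.28 and 9.88 before, again with the top values on after 2 and before 6. Its difference was -0.41 ± 0.54 and became -0.97 without after 2 (limma, adjusted p = 0.325).

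IFITM1, a membrane protein that hinders viral entry, differed by 0.18 ± 0.25, and TRIM21, a receptor for antibody-coated virus in the cytosol, by -0.02 ± 0.42. OASL, a relative of the enzymes that activate RNase L, was at 6.38, 5.95 and 5.99 after cold and 6.41, 5.50 and 5.48 before, with a difference of 0.31 ± 0.33. It had its top values on arrays 1 and 4. The symbol rule also took IFITM5, best known from bone, and ISG20L2, a nucleolar exonuclease. IFITM5 was at 5.76, 5.47 and 6.82 after and 5.52, 6.66 and 5.17 before, high on after 3 and before 5, with a difference of 0.24 ± 0.48. ISG20L2 differed by 0.17 ± 0.24. Without these 2 genes the median difference of the other 37 was -0.02.

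The ISG15 system attaches the ubiquitin-like ISG15 to other proteins and removes it. ISG15 was at 9.23, 8.97 and 8.85 after cold and 9.12, 8.82 and 9.33 before, with full overlap and a difference of -0.07 ± 0.27. UBA7, the activating enzyme, differed by 0.07 ± 0.33, the ligases TRIM25 and HERC5 by 0.11 ± 0.24 and -0.28 ± 0.27, and the protease USP18 by 0.02 ± 0.28. None of the 5 ranged over 2-fold across the arrays, where 48.5% of all genes did, and so few genes do not make this a trait of the system. HERC5 was at 3.51 to 4.28 on all arrays, and it was 1 of 5 interferon genes among the dimmest 25% of probe sets, with EIF2AK2, IFITM5, MX2 and OASL. Detection calls were not used here, so signal cannot be told from background for these 5.

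The remaining induced genes included IFI6, a mitochondrial and endoplasmic reticulum protein, and its relative IFI27. IFI6 was at 9.43, 7.84 and 8.06 after cold and 9.06, 8.13 and 7.87 before. It was high on arrays 1 and 4 and at least 0.93 lower on the other 4, and the groups differed by 0.09 ± 0.49. IFI27 was at 9.48, 7.95 and 9.16 after and 9.13, 8.75 and 8.02 before, low on after 2 and before 6, with a difference of 0.23 ± 0.46. IFI35 differed by 0.11 ± 0.31 and LGALS3BP, a secreted glycoprotein, by 0.11 ± 0.36.

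Some pairs of arrays held the extreme values of many interferon genes, within a group as well as between groups. After 2 and before 6 were the lowest pair of arrays for 13 of the 39 genes, among them IRF3, IRF7, IRF9, DHX58 and UBA7, where 36.9% of all genes had that order. They were the highest pair for 6, namely EIF2AK2, SAMD9, RSAD2, IFIT2, IFNAR2 and MX2, where 25.5% of all genes did. After 1 and after 3, of a single group, were the highest pair for 8 genes and the lowest for 7, against 21.1% and 20% of all genes. Over 2-fold differences were found in 0 interferon genes between after 2 and before 6 and in 0 between after 1 and before 4. The other pairs from opposite groups had 3 to 14 such genes, with 14 between after 3 and before 6. Pairs within a group had 3 to 12, with 12 between after 2 and after 3. For some of these pairs the whole arrays differed to a like degree. The median absolute difference between after 2 and before 6 was 0.106 over interferon genes and 0.101 over all genes. These 2 medians were 0.199 and 0.191 for after 1 and before 4, and 0.635 and 0.785 for after 3 and before 6. For after 2 and after 3 they were 0.627 and 0.77. Other pairs departed in either direction, with 0.385 and 0.259 for after 1 and before 5, and 0.259 and 0.4 for after 3 and before 5. The share of all genes over 2-fold is not given here for each pair, so nothing particular to interferon genes can be read from the counts.

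Arrays 1 and 4 were the lowest pair for MX1, IFNGR2, IRF5 and STAT2, or 4 of 39 against 3.61% of all genes. They were the highest pair for IFI6 and OASL, or 2 of 39 against 7.23% of all genes. The gap to the other 4 arrays was 0.95 for MX1 and 0.93 for IFI6. After 3 and before 5 were the highest pair for 7 genes, against 15.4% of all genes. The labels do not state which arrays come from a single animal, and the part of shared animals in these patterns was not tested. Across the 6 arrays 17 of the 39 genes ranged over 2-fold, or 43.6%, against 48.5% of all genes.

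**Figure D4:**
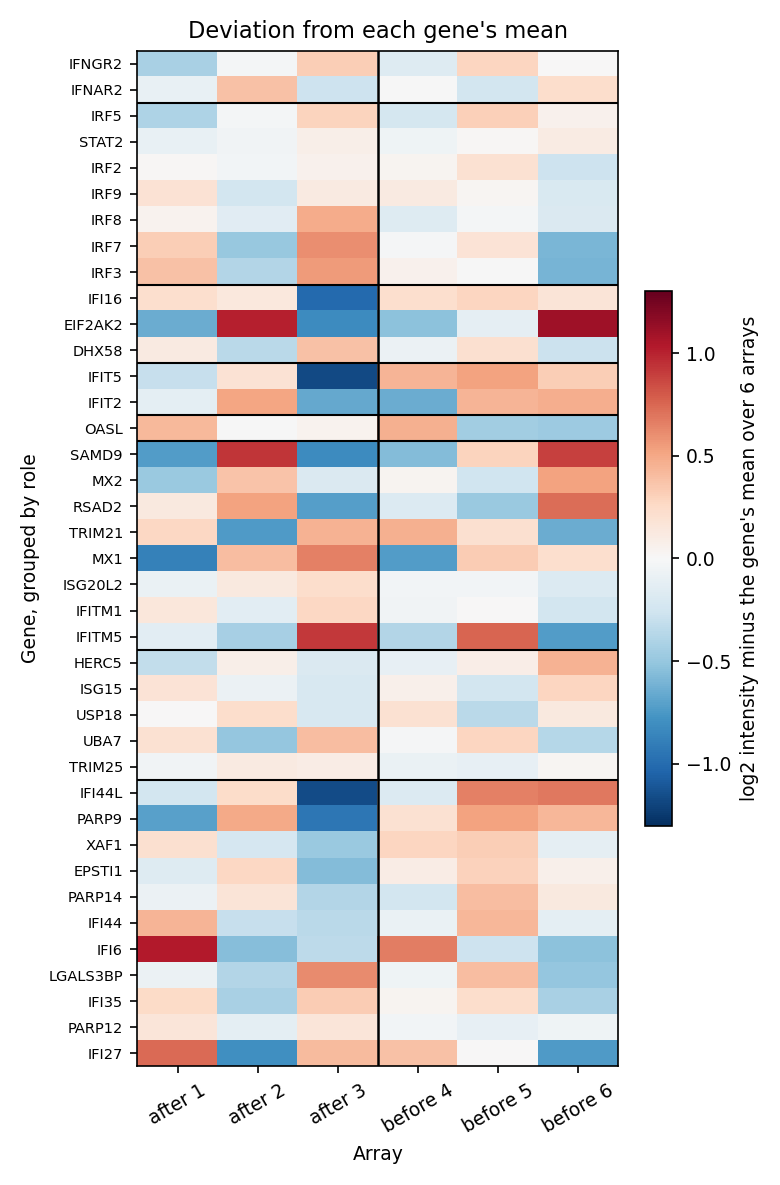
Deviation of each interferon gene from its own mean over the 6 arrays, in log2 units, with genes in rows grouped by role and arrays in columns (after cold left, before cold right of the line). The after 2 and before 6 columns look alike, with EIF2AK2 and SAMD9 high and IFI27 and IRF7 low, and after 3 holds the lowest values of IFIT5, IFI44L and IFI16.

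The counts moved with single arrays. Non-overlapping groups were found in 15 interferon genes without after 2 and in 17 without after 2 and before 6, while 42.8% and 47.9% of all genes then had them. The count was 7 without after 1 (10.5% of all genes), 4 without before 4 (10.3%), 3 without before 6 (10.9%) and 2 without before 5 (9.18%). The single gene at an unadjusted p under 0.05 became 4 without after 2 (IFIT5, PARP9, IFI44L and SAMD9), against 12.5% of all genes, and 0 without any 1 of the other 5 arrays. With the samples matched as 1-4, 2-6 and 3-5, or as 1-5, 2-6 and 3-4, and the matching as a block, it became 3 (IFIT5, PARP9 and IFI44L). Of all genes 8.43% and 5.11% reached that p under these matchings, and the other 4 matchings gave 0 interferon genes. With limma, no interferon gene passed an adjusted p of 0.05 in any of these fits.

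Other genes of the pathway were read from a list of 69, of which 38 were measured. After cold 20 of these were higher on average and 18 lower, with a median difference of 0.05. In limma 0 of 38 passed the adjusted threshold and 0 had an unadjusted p under 0.05, where 0.537% of all genes did. A mean at least 1.5-fold lower after cold was seen in 5 of 38, against 6.82% of all genes. None was 1.5-fold higher, where 0.142% of all genes were. Those with the smallest p were STAT4, which transmits interleukin-12 and type I interferon signals, at -0.85 ± 0.43, and the interferon-induced GTPase gene GBP4 at -0.90 ± 0.47. Next came TRIM5, a restriction factor of retroviruses, at -0.78 ± 0.45, and PIAS1, a SUMO ligase that restrains interferon signalling, at -0.61 ± 0.36. PNPT1 followed at -0.75 ± 0.47 and GBP5 at -0.45 ± 0.30. STAT4, GBP4, TRIM5 and PNPT1 were lowest on after 3, at 7.60, 6.42, 8.64 and 5.93, with after 2 among the before arrays. GBP5 was also lowest on after 3, and PIAS1 was lowest on after 1. Groups did not overlap in 1 of the 38, against 5.02% of all genes; this was STAT3, at 9.83, 9.77 and 9.99 after cold and 9.64, 9.71 and 9.46 before.

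Interferon gamma itself, IFNG, was at 6.78, 4.61 and 5.59 after cold and 5.43, 5.40 and 4.58 before. After 1 was its highest array and after 2 and before 6 its lowest, and it differed by 0.52 ± 0.53. JAK1, the kinase shared by both receptor types, differed by -0.0041 ± 0.37, and CXCL10, a chemokine induced by interferon gamma, by -0.34 ± 0.44. All 3 had overlapping groups and an adjusted p of 1.00 in limma.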

How the data were processed

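The 6 arrays were Affymetrix-type single-colour arrays labelled with biotin from 100 ng of total RNA, per the labels' protocols. The authors deposited 1 linear intensity per probe set and array, from 3.91 to 18225. GCOS and RMA are named in the submitters' processing notes, without versions; filters are not stated and the genome build is not given in the sources used here. Their log2 was used with no further normalization, filter or pseudocount.

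The platform annotation supplied gene names: 8125 had 1 symbol, 56 several and 4582 none. All 39 interferon symbols were current in the RefSeq gene table of ARS-UCD2.0, used for names and neighbours only. A gene with several probe sets was read by that with the highest mean; 9 of the 39 had several.

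All 12763 probe sets were fitted with limma 3.58.1 in R 4.3.3, after minus before cold, no block, two-sided, with Benjamini-Hochberg adjustment and a threshold of 0.05. Errors of differences are limma's SE. The number of arrays limits the precision. On simulated data of this size the test called 7.46% of 67 probe sets with a log2 change of 1, 49.3% of 67 with 2 and 84.8% of 66 with 3. The simulated noise was independent between probe sets and arrays. The real arrays shared patterns and animals, so these rates need not hold for them.

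Genes with values on every array followed a written rule: 8 measured core genes, those with an unadjusted p under 0.05 or non-overlapping groups, the 6 smallest p, the 6 widest ranges, and the 3 highest and 3 lowest differences. Some others (IFIT2, IFI27, IFI44, STAT3, IFNG) were added after their values were seen. Members, lists and tests were chosen with earlier results of these data known. Alternatives were filters on dim probe sets, variance trend, array weights, median centring, quantile normalization, mean of probe sets, leaving out arrays, and each of 6 matchings of samples as a block.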

Additional observations from a re-analysis of the deposited data

How the results depend on the processing

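In limma, 0 interferon genes, 0 of the listed pathway genes and 0 probe sets passed the adjusted threshold under each alternative run, and the smallest adjusted p of an interferon gene was 0.270, without after 2. At an unadjusted p under 0.05 in limma there were 0 to 4 interferon genes, beside 0.0158% to 12.5% of all genes. The 4 were found without after 2, where the share of all genes was 12.5%. The count with non-overlapping groups was 1 in the main comparison (5.02% of all genes) and 2 with median centring, TRIM25 beside IFIT5 (5.52%). It was 17 without after 2 and before 6 (47.9%) and 1 to 15 on leaving out each array (6.63% to 42.8%). Fewer arrays make such a split easier, and the counts moved with the shares of all genes. The median difference stayed between -0.07 and 0.04. The dim filters, the variance trend and the blocks cannot move a single gene's difference; of the 429 values under the other 11 alternatives, 67 (15.6%) had the opposite sign, 0 of them past the threshold, and 15 of 39 genes kept their sign under all of these, IFIT5, PARP9, IFI44L, IRF3 and IRF7 among them. Array weights were extreme, at 0.0019 for after 1 and 30.7 for before 4, so those values rest on few arrays. No paired analysis by replicate number was possible because the groups share no numbers. The limit set by dim signal could not be judged without detection calls.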

Other observations

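Antigen processing genes of the pathway list, which interferon gamma is known to induce, lay close to 0. The immunoproteasome subunit genes PSMB8, PSMB9 and PSMB10 differed by 0.10 ± 0.30, 0.14 ± 0.31 and 0.11 ± 0.34 (SE, n = 3 in each group; limma, adjusted p = 1.00 for each). The peptide transporter genes TAP1 and TAP2 differed by 0.13 ± 0.28 and 0.19 ± 0.28. The proteasome activator genes PSME1 and PSME2 differed by -0.24 ± 0.25 and -0.0091 ± 0.32, and B2M, the light chain of MHC class I, by -0.11 ± 0.24.

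Probe sets of a gene disagreed in sign for 3 interferon genes. The probe sets of IRF5 gave -0.09, 0.03 and 0.10, those of PARP12 0.13, 0.13, -0.0015 and 0.47, and those of USP18 0.02, 0.07, -0.05 and 0.12, each with an SE larger than the difference. The PARP12 probe set at 0.47 ± 0.53 was at 4.07, 5.21 and 6.03 after cold and 4.05, 4.52 and 5.33 before, with arrays 1 and 4 lowest.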
